A study of Mus musculus with 8 samples.

Results

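The genes described here build the cilium, the microtubule-based projection of the cell surface, and they were taken from a table of read counts for 13607 mouse genes by name. Symbols beginning with Ift, Bbs, Cfap, Dnah, Dnaic, Rsph or Tekt followed by a number were selected, together with Foxj1, Rfx2, Rfx3, Arl13b, Gli2, Gli3, Ptch1 and Smo. This gave 63 genes of 13607, of which 27 belong to the primary cilium (Ift, Bbs, Arl13b and the Hedgehog genes) and 36 were placed with the motile cilium. In the mouse annotation (GENCODE M21, GRCm38) the same names match 92 genes. All 14 Ift and all 8 Bbs genes were in the table, against 14 of 31 Cfap, 8 of 15 Dnah, 5 of 8 Rsph and 4 of 5 Tekt genes. Gli1 and the other genes not in the table were not analysed here. Every gene in the table reached 1 CPM (read counts scaled to library size) in at least 2 libraries, so members below that level are not in it, and all of the missing genes but Gli1 are of the motile kind. Cfap genes were counted as motile by prefix, although Cfap20, Cfap36 and Cfap97 are also expressed in cells without motile cilia.

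A primary cilium is a solitary, immotile antenna that most cells, astrocytes included, can grow from the mother centriole when they are not dividing. It is assembled by intraflagellar transport (IFT), in which the IFT-B complex with kinesin carries cargo to the tip and the IFT-A complex with dynein carries it back, while the BBSome, a coat-like complex of Bardet-Biedl syndrome proteins, moves membrane proteins out. In vertebrates Hedgehog signals are read inside this organelle, where the receptor Ptch1 holds back the transducer Smo, and where the Gli factors are processed. Motile cilia, which in brain line the ventricles on ependymal cells, add axonemal dynein arms, radial spokes and further axoneme-associated proteins. Their genes are switched on by Foxj1 and the RFX transcription factors.

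RNA was sequenced from cultured C57BL/6J mouse astrocytes homozygous for floxed Yap1 and floxed Taz (Wwtr1), the partner transcriptional coactivators of the Hippo pathway. The cells had lentiviral constructs for doxycycline-inducible HER2CA, a constitutively signalling version of the growth factor receptor HER2, for the doxycycline-dependent activator rtTA, and for CreERT2, a Cre recombinase that 4-hydroxytamoxifen (4OH-TAM) activates. The 8 libraries form 4 groups of 2. Control astrocytes were untreated and had no doxycycline. HER2CA astrocytes were collected 15 days after induction with doxycycline. Another set, labelled 4OH-TAM, had doxycycline and 1 µM 4OH-TAM for 15 days. HER2CA gliomaspheres, at passage P1, grew in suspension with doxycycline and were collected 3 weeks after the start. All groups shared a medium with N-2 supplement, EGF and bFGF. The sample labels and the design text name DMSO for cells without 4OH-TAM, whereas the treatment protocol calls them untreated, and nothing read here says if the controls carried the constructs. No label ties the 2 libraries of a group to separate cultures, so the p-values rest on the spread between libraries, which may be technical.

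The targeted genes were examined first. Yap1 stood at 144 and 136 CPM in controls, 101 and 103 in HER2CA astrocytes, 107 and 103 in the libraries labelled 4OH-TAM, and 131 and 136 in the spheres. It did not pass the test between the day 15 groups (log2 change 0.04, adjusted p = 0.569, edgeR quasi-likelihood test with Benjamini-Hochberg adjustment). Wwtr1 fell by 0.73 on the log2 scale there (adjusted p = 1.25e-07), from 194 and 210.3 CPM to 123 and 122. Counts over a whole gene need not drop when the floxed exons alone are lost, so these values check the labels only in part, and the group is called by its label throughout. Library totals ranged from 15517708 to 28231426 counts, and the 63 genes took 12769 to 52230 counts of them. Gliomasphere B stood apart: the ribosomal RNA transcript Rn45s took 36.1% of its counts, against 0.984 to 2.92% in the other libraries, so gliomasphere results are also given without it. Astrocyte markers were present in all groups, though 14 of the 15 measured were lower in HER2CA astrocytes than in controls and Gpc5 was at 0 counts there. Over all genes 38.4% were lower in that comparison.

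Across the 4 groups, the motile genes were highest in the 4OH-TAM group and lowest in gliomaspheres, whereas the primary-cilium genes were spread more narrowly. Of the 36 motile genes, 25 (69.4%) had their highest mean level in the 4OH-TAM group, the place of the maximum for 18.2% of all genes. Gliomaspheres held the lowest mean for 21 of the 36 (58.3%, against 26.7% of all genes). The ratio of the highest to the lowest group mean had a median of 4.35 over the motile genes, from 1.30 for Cfap97 to 15.4 for Dnah6. Over the primary-cilium genes it had a median of 1.73, from 1.15 for Smo to 3.74 for Ift27, and over all genes with a ratio it was 2.09. Of the primary genes, 12 (44.4%) peaked in HER2CA astrocytes, not far from the 36.5% of all genes that did. Another 12 (44.4%) peaked in the 4OH-TAM group, against 18.2% of all genes. Gliomaspheres held the minimum for 14 (51.9%), against 26.7%. These orders are a description of the means, and the motile genes were on lower counts. Cfap61, Tekt4 and Tekt5, among the 25, reached 1 CPM only in the 4OH-TAM libraries. They are in the table through that group, so their peak there was fixed in advance.

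**Figure D1:**
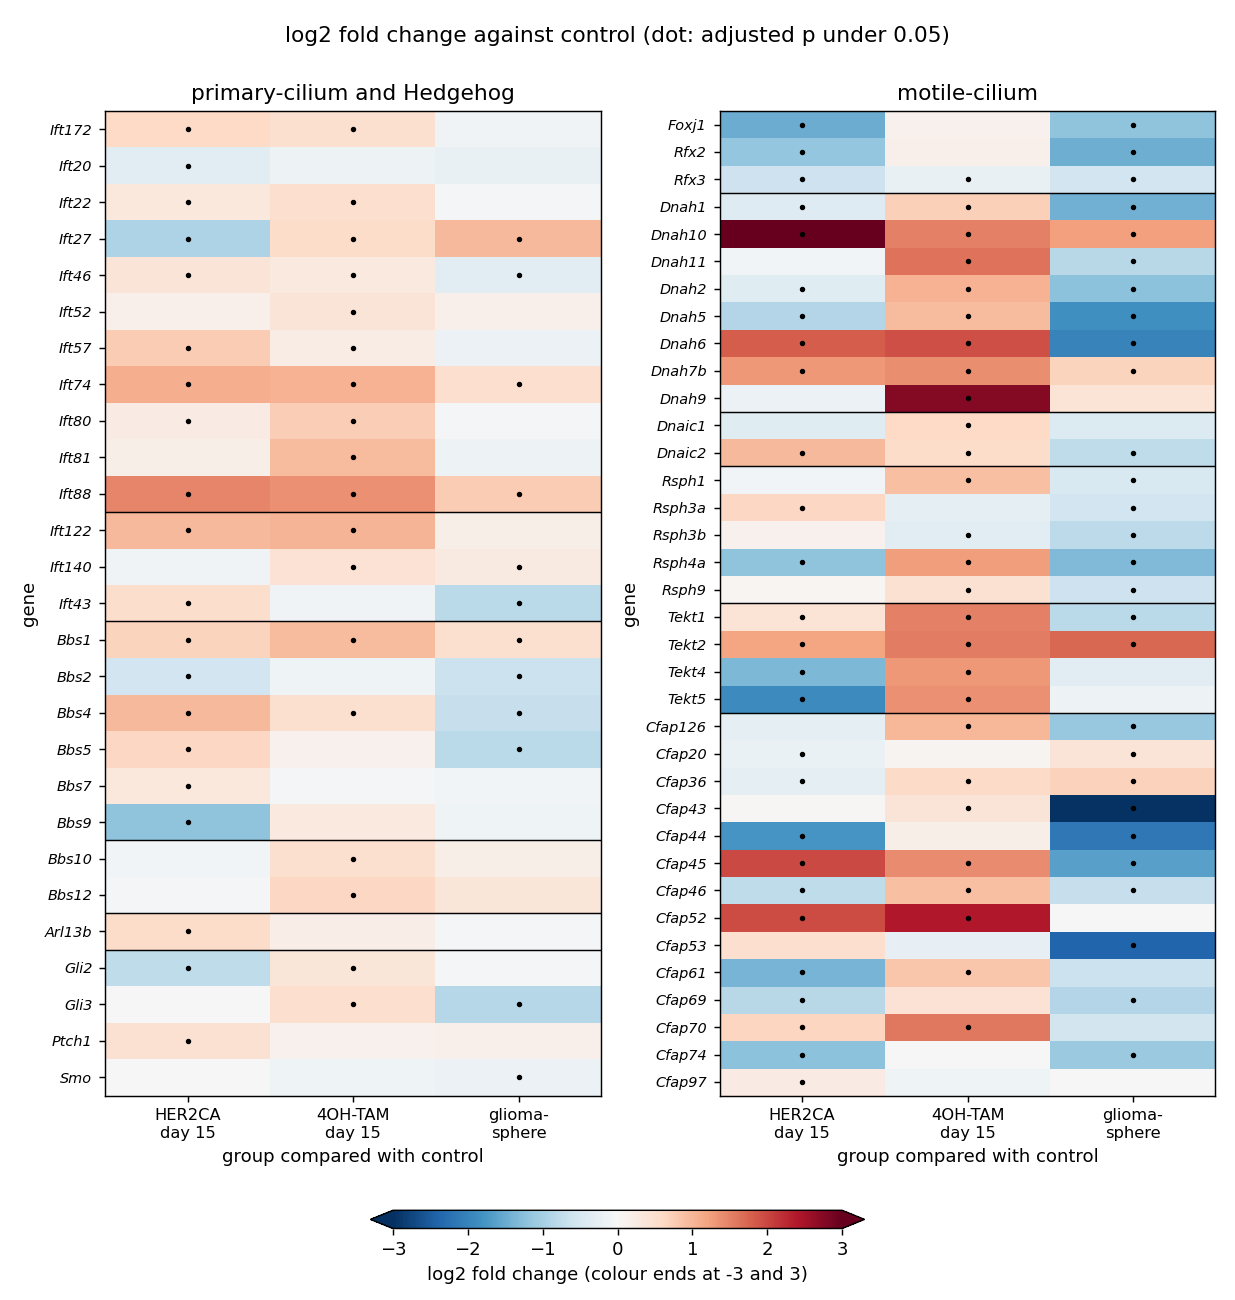
Log2 fold change from controls of all 63 genes (rows, grouped by role) in HER2CA astrocytes, in the 4OH-TAM libraries and in gliomaspheres (columns, 2 libraries each). The colour scale ends at -3 and 3 and a dot marks an adjusted p under 0.05. Most motile rows are positive in the 4OH-TAM column, where 25 of 36 were called higher, and negative in the gliomasphere column, where 23 of 36 were called lower.

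HER2CA astrocytes at day 15 had more mRNA than controls for most of the IFT and BBSome genes selected by symbol. They had less for the transcription factors of motile ciliogenesis, with structural motile genes moving both ways. Among 24 IFT and BBSome genes with other names, 6 rose and 6 fell, so the increase does not extend to these. Of the 27 primary-cilium genes 15 rose and 5 fell, where 37.3% of all genes rose and 38.4% fell, 75.8% in all, by edgeR's quasi-likelihood test. Ift88 (log2 change 1.46), Ift74 (1.08), Ift122 (0.98) and Bbs4 (0.97) rose, while Bbs9 (-1.21), Ift27 (-0.92) and Gli2 (-0.76) fell. Of the 36 motile genes 11 rose and 16 fell, shares of 30.6% and 44.4%, near the background. Dnah10 (3.68), Cfap45 (1.97), Cfap52 (1.96) and Dnah6 (1.82) rose while Tekt5 (-1.91), Cfap44 (-1.77) and Foxj1 (-1.48) fell. At least 2-fold, 6 motile genes rose and 8 fell, against 10.1% and 19.5% of all genes. The median change was 0.31 over the primary set, -0.19 over the motile set and -0.02 over all genes. Counts scaled by library totals alone left 5 primary genes higher and 3 lower. That setting called 2304 of all genes higher and 3586 lower, in place of 5082 and 5226.

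The libraries labelled 4OH-TAM had more mRNA for most motile-cilium genes than HER2CA astrocytes of the same day, while the primary set moved both ways. In this comparison 40.8% of all genes were called higher and 39.7% lower (80.5% in all), and of the motile genes 26 of 36 rose and 6 fell. Among them 17 rose at least 2-fold, as did 23.9% of all genes, and 1, Dnah10, fell by that much, as did 9.3%. The 17 include Cfap61, Tekt4 and Tekt5, which are in the table only through the 4OH-TAM libraries. The 12 primary genes that rose and 8 that fell included Ift27 (1.46), Bbs9 (1.50) and Gli2 (1.13) above, and Ift43 (-0.64), Ift57 (-0.54) and Bbs5 (-0.51) below. Median changes were 0.98 for the motile set, 0.17 for the primary set and 0.01 for all genes. Without scaling factors the motile split was 21 higher and 2 lower and the primary split 6 and 0. That setting called 4338 of all genes higher and 2037 lower, in place of 5547 and 5400. With upper-quartile factors the primary split was 15 and 4.

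Measured from controls, the 4OH-TAM group showed calls almost all in the direction of higher levels, in both sets. Of the primary genes 18 of 27 rose and 0 fell, and of the motile genes 25 of 36 rose and 2 fell, where 31% of all genes rose and 28.2% fell (59.2% in all). The count of 0 primary genes lower was also 0 at an unadjusted p under 0.05 in edgeR and 0 in DESeq2. Ift20 (-0.16, adjusted p = 0.35), Smo (-0.13, adjusted p = 0.112) and Bbs2 (-0.13, adjusted p = 0.183) had the most negative values. The median change was 0.44 for primary, 0.87 for motile and 0.00 for all genes. The 14 motile genes at least 2-fold higher were led by Dnah9 (2.75), Cfap52 (2.40) and Dnah6 (1.94), and 12.1% of all genes rose that far. No motile gene fell 2-fold, as 2.95% of all genes did. Cfap61, Tekt4 and Tekt5, in the table only through the 4OH-TAM libraries, are among the 25 that rose. Without scaling factors the primary split was 6 higher and 0 lower and the motile split 18 and 0. That setting called 2115 of all genes higher and 539 lower, in place of 4221 and 3840. The motile genes called lower, Rfx3 and Rsph3b, were not called with upper-quartile factors either. This comparison and the preceding pair share libraries, so their values are given side by side and not as separate evidence.

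Gliomaspheres had less mRNA for most motile-cilium genes than controls, and a mixed primary set. Of the motile genes 23 of 36 fell and 5 rose, where 32% of all genes fell and 32.5% rose (64.5% in all). At least 2-fold, 13 motile genes fell against 8.58% of all genes, and 2 rose against 11.4%. Cfap43 (-2.97), Cfap53 (-2.39), Cfap44 (-2.15), Dnah6 (-1.997), Dnah5 (-1.85) and Cfap45 (-1.63) led the decreases, and Tekt2 (1.72), Dnah10 (1.24), Cfap36 (0.69), Dnah7b (0.67) and Cfap20 (0.39) were the 5 increases. In the primary set 5 of 27 rose and 7 fell, both below the share for all genes. The median change was -0.73 for motile, -0.05 for primary and -0.01 for all genes. Without gliomasphere B the motile split was 5 higher and 22 lower with a median of -0.65, and the primary split was 7 and 7. Without scaling factors 1 motile gene was higher and 23 lower, and 0 primary genes were higher and 5 lower. That setting called 1386 of all genes higher and 3260 lower, in place of 4427 and 4353.

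Against HER2CA astrocytes, gliomaspheres had lower levels in both sets, the IFT-B genes included. Of the primary genes 17 of 27 fell and 4 rose, and of the motile genes 21 of 36 fell and 5 rose, where 40.4% of all genes fell and 38.4% rose (78.8% in all). At least 2-fold, 11 motile genes fell and 1 rose, against 14.1% and 22.1% of all genes. The 21 and the 11 include Cfap53, which reached 1 CPM only in the HER2CA libraries (1.10 and 1.14). Cfap53 is in the table through that group, so its lower level in gliomaspheres here was fixed in advance. Dnah6 (-3.82), Cfap45 (-3.60), Cfap43 (-2.99), Bbs4 (-1.65) and Bbs5 (-1.44) fell, and Ift27 (1.90), Bbs9 (1.07) and Gli2 (0.71) rose. Medians were -0.32 for primary, -0.50 for motile and -0.03 for all genes. Without gliomasphere B the splits were 6 higher and 15 lower for primary and 4 and 18 for motile genes, and Cfap44, Dnah11, Dnah9, Ift22, Ift80 and Rsph1 were no longer called. Without scaling factors the motile split was 1 and 18, and with upper-quartile factors the primary split was 6 and 12. The former setting called 3030 of all genes higher and 4631 lower, in place of 5228 and 5499.

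**Figure D2:**
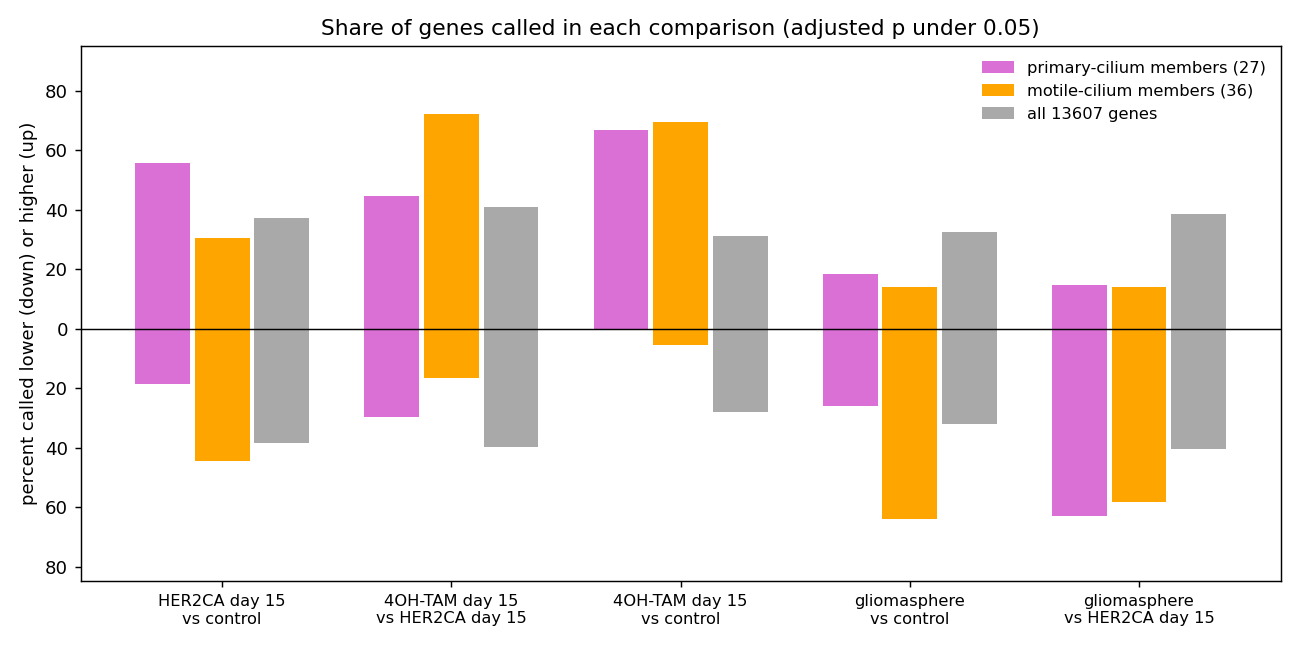
Percent of genes called higher or lower at an adjusted p under 0.05 in each of the 5 comparisons, for the 27 primary-cilium genes, the 36 motile-cilium genes and all 13607 genes. In the comparison of the day 15 groups 26 of 36 motile genes were higher against a background of 40.8%, and in gliomaspheres against controls 23 of 36 were lower against a background of 32%.

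The 3 transcription factors of the set were lower in HER2CA astrocytes than in controls and higher again in the libraries labelled 4OH-TAM. Foxj1, the forkhead factor that switches on motile ciliogenesis (chromosome 11, 116330704 to 116335399, minus strand, GRCm38), had 198 and 206 CPM in controls, 72.0 and 72.6 in HER2CA astrocytes, 219 and 220.5 in the 4OH-TAM libraries and 89.2 and 87.1 in gliomaspheres. The 4 libraries of the control and 4OH-TAM groups lay above all 4 others with a wide gap. Foxj1 fell 2.79-fold in HER2CA astrocytes (log2 change -1.48, SE 0.0663, adjusted p = 3.76e-11) and was 3.04-fold higher in the 4OH-TAM group than there (1.60, SE 0.0664, adjusted p = 1.46e-11), by edgeR's quasi-likelihood test. Its difference between the 4OH-TAM group and controls, 0.12, did not pass (adjusted p = 0.114). In gliomaspheres it fell by 1.20 against controls (adjusted p = 8.24e-10), and by 1.18 without gliomasphere B. Per kilobase of exon Foxj1 was at 77.1 CPM in controls, far above the dynein gene Dnah9 at 0.158. In bulk RNA, fewer cells of a type and less RNA per cell cannot be told apart.

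Rfx2, an X-box-binding factor needed for motile cilia and spermatid flagella, was likewise higher in the control and 4OH-TAM groups, with its lowest levels in gliomaspheres, where Foxj1 was lowest in HER2CA astrocytes. It had 20.2 and 21.2 CPM in controls, 9.26 and 9.21 in HER2CA astrocytes, 22.8 and 22.9 in the 4OH-TAM libraries and 6.92 and 8.50 in gliomaspheres, with no overlap between the upper and lower pair of groups. It fell by 1.16 in HER2CA astrocytes (SE 0.111, adjusted p = 1.6e-07) and rose by 1.31 in the 4OH-TAM group relative to them (SE 0.11, adjusted p = 3.46e-08). Rfx3, which also serves primary cilia, had 125 and 105 CPM in controls, 77.0 and 71.6 in HER2CA astrocytes, 101 and 95.7 in the 4OH-TAM libraries and 73.6 and 82.2 in gliomaspheres. HER2CA and gliomasphere libraries overlapped for Rfx3 and lay below the others. It fell by 0.63 in HER2CA astrocytes (adjusted p = 9.95e-06) and its value in the 4OH-TAM group was -0.23 against controls (adjusted p = 0.0358). That last call was lost in 7 of the 17 alternatives, among them DESeq2 (adjusted p = 0.0622) and the fits without control A (-0.11, adjusted p = 0.378), without 4OH-TAM A (-0.27, adjusted p = 0.0678) and without 4OH-TAM B (-0.19, adjusted p = 0.193).

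**Figure D3:**
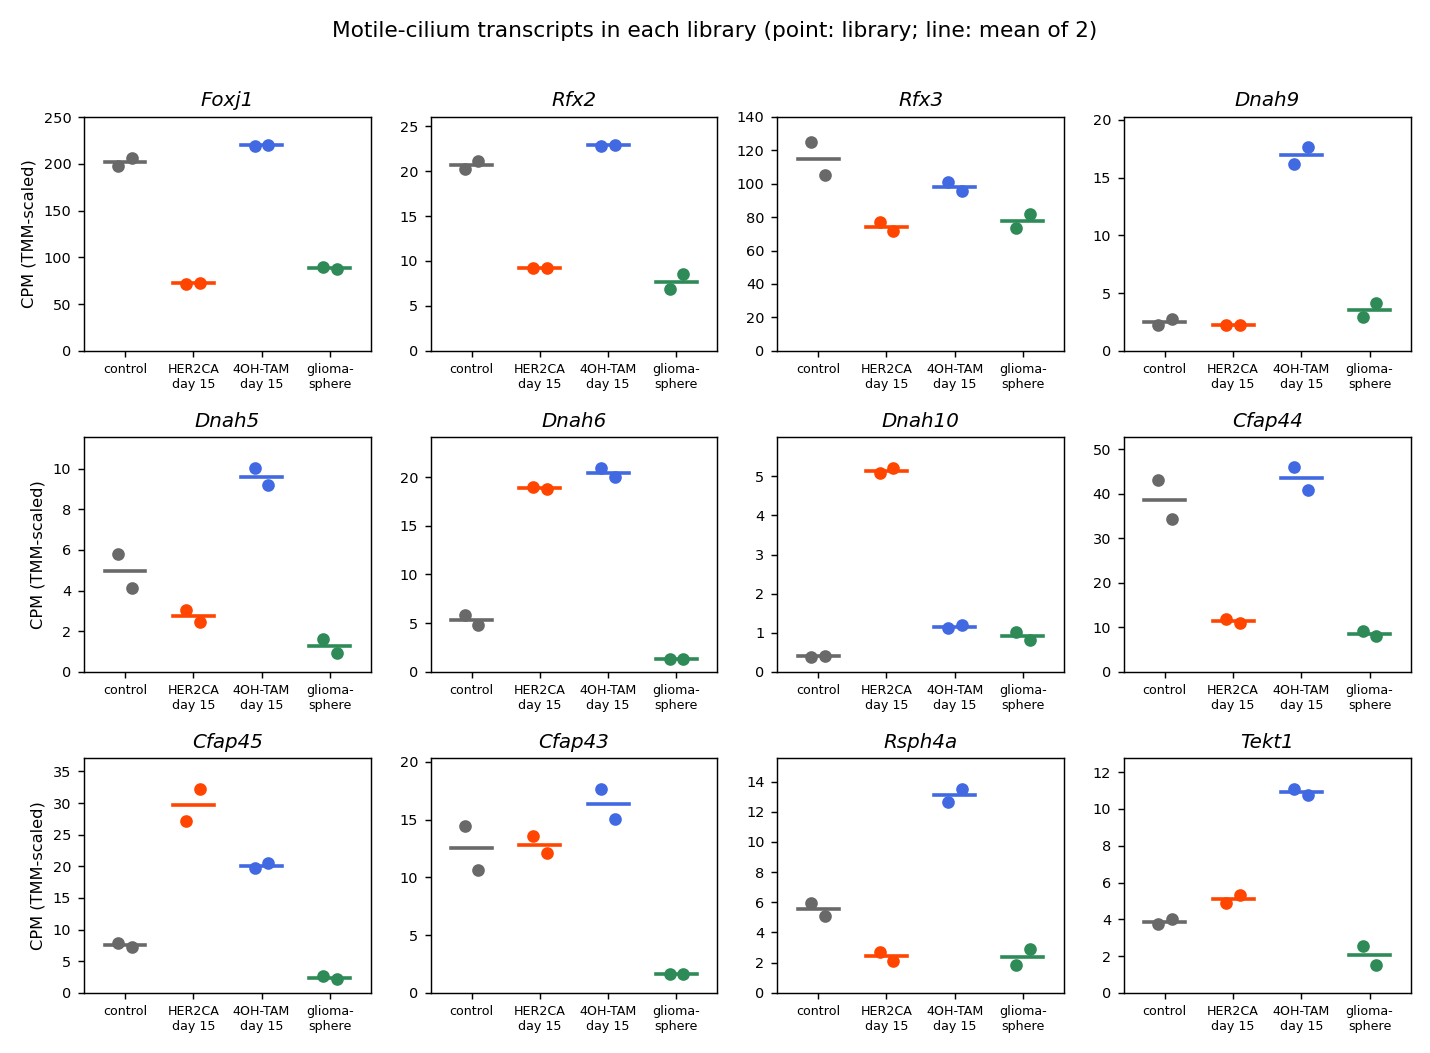
TMM-scaled CPM of 12 motile-cilium genes in each of the 8 libraries, 1 point per library, with a line at the mean of the 2 libraries of a group. Foxj1 is near 200 in control and 4OH-TAM libraries and below 90 in the others, and Dnah9 is above 16 in both 4OH-TAM libraries and below 5 elsewhere.

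RFX factors bind X-box sequences and forkhead factors bind GTAAACA-type sequences, so the 250 bases upstream of the annotated starts were searched on both strands. RefSeq (GRCm38.p6) gave windows for 55 of the 63 genes, 24 windows for 24 primary genes and 37 windows for 31 motile genes. The short RFX motif GTTGCC was in 12 of 37 motile windows (32.4%) and 5 of 24 primary windows (20.8%), against 10.8% of the 13279 windows of all genes in the table. The full X-box palindrome was in 1 primary window (4.17%), that of Bbs7, and in 0 motile windows, against 0.497% of all windows, and the GTTGCC of Bbs7 lies inside it. GTAAACA was in 2 motile windows (5.41%), those of Cfap20 and Cfap43, in 0 primary windows and in 2.07% of all windows. The GLI-type motif GACCACCCA was in 0 windows of either set and in 0.181% of all windows. A match describes letters in a window and shows no binding. The stretches printed here are examples: Bbs7, with the palindrome, Cfap44, Tekt1 and Rfx2, with GTTGCC, and Cfap43, lowest in gliomaspheres, with GTAAACA. The mRNA of Cfap44, Tekt1 and Rfx2 rose from HER2CA astrocytes to the 4OH-TAM group, but against controls only Tekt1 was called higher. Other genes with GTTGCC went both ways between the day 15 groups. Cfap20, Cfap46, Cfap74, Ift27 and Ift140 were called higher, and Dnah10, Dnaic2, Ift57, Arl13b and Bbs7 lower. They run 5′ to 3′ on the gene's strand, with matches in capitals and a match on the other strand appearing as GGCAAC.
Bbs7, chr3:36613478-36613639, minus strand: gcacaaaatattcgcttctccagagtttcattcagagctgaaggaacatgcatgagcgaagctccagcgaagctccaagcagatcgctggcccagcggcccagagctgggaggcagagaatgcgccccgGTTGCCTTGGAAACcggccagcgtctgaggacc
Cfap44, chr16:44394549-44394795, plus strand: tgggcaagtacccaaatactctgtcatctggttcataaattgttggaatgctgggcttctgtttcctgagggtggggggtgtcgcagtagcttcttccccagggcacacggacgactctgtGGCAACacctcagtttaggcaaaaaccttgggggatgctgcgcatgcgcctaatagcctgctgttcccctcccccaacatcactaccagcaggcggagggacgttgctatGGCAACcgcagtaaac
Tekt1, chr11:72361883-72362132, minus strand: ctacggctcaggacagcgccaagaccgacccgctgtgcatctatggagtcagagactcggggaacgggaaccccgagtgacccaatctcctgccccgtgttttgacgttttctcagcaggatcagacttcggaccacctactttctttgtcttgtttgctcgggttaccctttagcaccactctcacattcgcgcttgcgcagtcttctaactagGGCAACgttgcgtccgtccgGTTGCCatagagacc
Rfx2, chr17:56831014-56831258, minus strand: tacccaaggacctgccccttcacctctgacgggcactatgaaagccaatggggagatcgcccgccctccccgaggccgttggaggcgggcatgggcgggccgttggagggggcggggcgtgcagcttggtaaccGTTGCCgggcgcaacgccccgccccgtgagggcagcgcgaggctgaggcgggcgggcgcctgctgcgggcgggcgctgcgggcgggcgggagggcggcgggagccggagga
Cfap43, chr19:47837383-47837611, minus strand: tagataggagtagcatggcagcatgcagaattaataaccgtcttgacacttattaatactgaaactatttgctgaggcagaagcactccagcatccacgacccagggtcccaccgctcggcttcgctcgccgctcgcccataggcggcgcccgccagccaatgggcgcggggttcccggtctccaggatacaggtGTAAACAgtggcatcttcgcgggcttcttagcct

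The 8 axonemal dynein heavy chains, the motors that bend the axoneme, all rose in the 4OH-TAM group relative to controls, but each had its own course. Over all genes 31% rose in that comparison. Dnah9, an outer-arm chain (chromosome 11, 65831282 to 66168551, minus strand), had 2.27 and 2.76 CPM in controls, 2.20 and 2.21 in HER2CA astrocytes, 16.2 and 17.7 in the 4OH-TAM libraries and 2.89 and 4.15 in gliomaspheres. Only the 4OH-TAM libraries stood above 5 CPM. The increase over HER2CA astrocytes was 7.66-fold (log2 change 2.94, SE 0.168, adjusted p = 4.43e-10, edgeR), and HER2CA astrocytes did not differ from controls by this test (-0.19, adjusted p = 0.435). Dnah5, an outer-arm chain commonly affected in ciliary dyskinesia, had 5.80 and 4.12 CPM in controls, 3.02 and 2.45 in HER2CA astrocytes, 10.03 and 9.18 in the 4OH-TAM libraries and 1.59 and 0.911 in gliomaspheres. Its groups did not overlap. It fell by 0.88 in HER2CA astrocytes and by 1.85 in gliomaspheres against controls, and rose by 0.95 in the 4OH-TAM group.

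Dnah6 and Dnah10, inner-arm chains, were instead high in HER2CA astrocytes. Dnah6 had 5.88 and 4.78 CPM in controls, 19.0 and 18.8 in HER2CA astrocytes, 20.9 and 20.0 in the 4OH-TAM libraries and 1.34 and 1.31 in gliomaspheres. The day 15 groups lay close together and gliomaspheres were 14.1-fold below HER2CA astrocytes (log2 change -3.82, SE 0.177, adjusted p = 2.78e-11, edgeR). Dnah10 had 0.384 and 0.412 CPM in controls, 5.09 and 5.21 in HER2CA astrocytes, 1.11 and 1.19 in the 4OH-TAM libraries and 1.01 and 0.809 in gliomaspheres. Those control values rest on 10 counts in each library. The increase of Dnah10 in HER2CA astrocytes was 12.8-fold (3.68, SE 0.24, adjusted p = 2.2e-09), and it was the only heavy chain of the 8 that fell between the day 15 groups (-2.16, adjusted p = 6.53e-08). Dnah7b rose by 1.30 in HER2CA astrocytes, although 30.0% of its 50-base words also occur in other genes, the Dnah7 copies, so its counts are uncertain. The remaining chains, Dnah1, Dnah2 and Dnah11, rose by 1.10, 1.40 and 1.72 in the 4OH-TAM group over HER2CA astrocytes, and fell by 1.44, 1.24 and 0.83 in gliomaspheres against controls. Dnah11 was not called in the latter without gliomasphere B (-0.67, adjusted p = 0.0669). Dnah1, Dnah2, Dnah6, Dnah9, Dnah10 and Dnah11 overlap an exon of another gene on the opposite strand, and whether counting used strand is not stated in the material used, so such reads cannot be separated. Members outside this family overlap an opposite-strand exon too, among them Dnaic1, Cfap45, Cfap52, Bbs4, Ift57, Ift88 and Gli3. Cfap43 overlaps Itprip on its own strand.

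The intermediate chains of the outer dynein arm diverged. Dnaic2 rose by 0.97 in HER2CA astrocytes (adjusted p = 3.07e-05) and fell by 1.72 from there to gliomaspheres, while Dnaic1 had a value of -0.37 in HER2CA astrocytes (adjusted p = 0.0935) and rose by 0.97 in the 4OH-TAM group. Radial spokes pass signals from the central pair to the dyneins. The spoke-head gene Rsph4a had 5.95 and 5.11 CPM in controls, 2.70 and 2.14 in HER2CA astrocytes, 12.7 and 13.5 in the 4OH-TAM libraries and 1.84 and 2.93 in gliomaspheres. HER2CA and gliomasphere values overlapped, and the 4OH-TAM libraries were the highest. Rsph4a rose by 2.45 between the day 15 groups (SE 0.178, adjusted p = 6.46e-09, edgeR). Rsph1, another head component, had 11.1 to 13.5 CPM in the control and HER2CA libraries, 22.3 and 23.3 in the 4OH-TAM libraries and 9.39 and 8.20 in gliomaspheres, rising by 0.99 between the day 15 groups (adjusted p = 1.67e-06). All 5 Rsph genes fell in gliomaspheres against controls, by 0.46 to 1.33, though Rsph1 was not called without control B (-0.31, adjusted p = 0.0983). Over all genes 32% fell in gliomaspheres against controls. Rsph3a and Rsph3b share 54.4% and 62.4% of their 50-base words, chiefly with each other. Both fell between the day 15 groups, by 0.89 and 0.45, against the direction of Rsph1, Rsph4a and Rsph9, and the division of reads between them is uncertain.

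Tektins are filament proteins bound to the wall of the axonemal doublets. Tekt1 had 3.73 and 4.00 CPM in controls, 4.86 and 5.35 in HER2CA astrocytes, 11.1 and 10.8 in the 4OH-TAM libraries and 2.56 and 1.52 in gliomaspheres. Its 4 groups did not overlap, and it rose by 1.50 in the 4OH-TAM group over controls (SE 0.158, adjusted p = 1.5e-06). Tekt2, Tekt4 and Tekt5 were near the detection limit, at most 1.53 CPM in any library. Tekt4 had 18 and 10 counts in controls, 3 and 8 in HER2CA astrocytes, 32 and 40 in the 4OH-TAM libraries and 11 and 4 in gliomaspheres. Tekt5 had 9 and 14, 3 and 3, 38 and 24, and 11 and 3 counts in the same order, so its calls rest on few reads. Both were higher in the 4OH-TAM group than in HER2CA astrocytes, by 2.64 and 3.27. Only the 4OH-TAM libraries brought Tekt4 and Tekt5 to 1 CPM, so both are in the table through that group. Their higher level there was fixed by that floor and is not a test result.

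The 14 Cfap genes, named for cilia- and flagella-associated proteins, held some of the widest contrasts. Cfap43, a WD-repeat axoneme protein whose loss gives malformed sperm flagella, had 14.4 and 10.7 CPM in controls, 13.6 and 12.1 in HER2CA astrocytes, 17.6 and 15.1 in the 4OH-TAM libraries and 1.59 and 1.62 in gliomaspheres. The other 3 groups overlapped or adjoined and the gliomaspheres stood alone, 7.83-fold below controls (log2 change -2.97, SE 0.217, adjusted p = 1.68e-08, edgeR) and -2.98 without gliomasphere B. Its partner Cfap44 had 43.01 and 34.2 CPM in controls, 11.8 and 10.9 in HER2CA astrocytes, 45.9 and 40.9 in the 4OH-TAM libraries and 9.05 and 8.09 in gliomaspheres. Control and 4OH-TAM libraries overlapped for Cfap44, and the other groups lay well below, with gliomaspheres the lowest. It fell by 1.77 in HER2CA astrocytes (SE 0.12, adjusted p = 3.49e-09) and was higher by 1.94 in the 4OH-TAM group (adjusted p = 1.05e-09).

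Cfap45, which lies inside the doublet wall, went the other way from Cfap44 in HER2CA astrocytes. It had 7.91 and 7.21 CPM in controls, 27.2 and 32.2 in HER2CA astrocytes, 19.7 and 20.5 in the 4OH-TAM libraries and 2.60 and 2.12 in gliomaspheres, with no overlap among groups. It rose by 1.97 in HER2CA astrocytes (SE 0.12, adjusted p = 1.01e-09) and was 3.60 lower on the log2 scale in gliomaspheres than there (-3.60, adjusted p = 1.28e-11). Cfap52, another inner wall protein, had 1.73 and 1.90 CPM in controls, 6.97 and 7.14 in HER2CA astrocytes, 9.69 and 9.45 in the 4OH-TAM libraries and 1.63 and 2.12 in gliomaspheres. It rose in both day 15 groups, by 1.96 and 2.40 against controls. Cfap46, Cfap69 and Cfap74 fell by 0.77 to 1.23 in HER2CA astrocytes and rose by 1.23 to 1.66 between the day 15 groups. Cfap126, with 25.6 and 26.6 CPM in the 4OH-TAM libraries, rose by 0.99 there over controls. Cfap53 had 5 and 0 counts in the gliomasphere libraries, which limits the precision of its decrease. It reached 1 CPM only in the HER2CA libraries and is in the table through that group.

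The Cfap genes also expressed outside motile cilia behaved differently. Cfap36, which encodes a binding protein of the small GTPase ARL3, had 58.5 and 57.1 CPM in controls, 51.1 and 44.1 in HER2CA astrocytes, 91.7 and 81.4 in the 4OH-TAM libraries and 100.5 and 84.3 in gliomaspheres, and it rose in gliomaspheres by 0.69 (adjusted p = 2.04e-05). Cfap20, a conserved inner junction protein, was also highest in gliomaspheres, at 49.4 and 49.7 CPM against 36.9 to 38.7 in controls. Cfap97 varied between 31.2 and 45.1 CPM over all libraries.

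Genes of the motile cilium with other names, from a list of 65 of which 54 were in the table, were counted in the same way: 39 rose and 5 fell between the day 15 groups (median 1.07), and 31 fell and 8 rose in gliomaspheres against controls (median -0.81). Over all genes 40.8% rose and 39.7% fell in the first of these comparisons, and 32.5% rose and 32% fell in the second. In HER2CA astrocytes 21 of the 54 fell and 10 rose against controls, where 38.4% of all genes fell and 37.3% rose, so the decreases were at the background share. In the 4OH-TAM group 35 rose and 3 fell against controls, where 31% of all genes rose and 28.2% fell. Under 1 CPM were 9 and 10 of the 54 in controls and 12 and 11 in HER2CA astrocytes. In the 4OH-TAM libraries 2 and 4 were, and in gliomaspheres 16 and 14. Genes in the table through the 4OH-TAM group alone are bound to be higher there, and their number was not counted. Tppp3, a tubulin-binding protein abundant in ciliated cells, had 63.2 and 66.7 CPM in controls, 9.17 and 10.3 in HER2CA astrocytes, 56.7 and 52.1 in the 4OH-TAM libraries and 14.6 and 11.1 in gliomaspheres. As for Foxj1 and Cfap44, control and 4OH-TAM libraries lay above all others, here with controls the highest. Spag6, of the central pair, rose by 3.05 between the day 15 groups, and Lrrc23, of the radial spoke, by 2.45. Drc1, of the nexin-dynein regulatory complex, had 54.2 and 52.8 CPM in controls, 96.0 and 96.2 in HER2CA astrocytes, 61.9 and 54.2 in the 4OH-TAM libraries and 11.9 and 10.02 in gliomaspheres, where it fell by 3.10 from HER2CA astrocytes. Gmnc, the coactivator at the head of multiciliated differentiation, was named after its values were seen. It had 2.72 and 2.07 CPM in the 4OH-TAM libraries and at most 0.412 in the others. Gmnc is thus in the table only through the 4OH-TAM group, and its higher level there was fixed in advance.

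Turning to the primary cilium, the 11 IFT-B genes were mostly higher in both day 15 groups than in controls: 7 rose and 2 fell in HER2CA astrocytes, and 10 rose and 0 fell in the 4OH-TAM group. Over all genes 37.3% rose and 38.4% fell in HER2CA astrocytes, and 31% rose and 28.2% fell in the 4OH-TAM group. Without scaling factors, only Ift57, Ift74 and Ift88 of the IFT-B genes were still called higher in HER2CA astrocytes. In the 4OH-TAM group only Ift74, Ift80, Ift81 and Ift88 were. Calls over all genes also dropped in that setting. In gliomaspheres against HER2CA astrocytes 8 fell and 1 rose (40.4% and 38.4% of all genes), and Ift22, Ift80 and Ift81 were not called lower without scaling factors. Ift88, the IFT-B core protein whose loss abolishes cilia (chromosome 14, 57424062 to 57517936, plus strand), had 5.34 and 4.98 CPM in controls, 13.1 and 15.2 in HER2CA astrocytes, 13.4 and 13.2 in the 4OH-TAM libraries and 8.51 and 9.21 in gliomaspheres. The day 15 groups overlapped and lay above gliomaspheres, which lay above controls. The rise in HER2CA astrocytes was 2.75-fold (log2 change 1.46, SE 0.131, adjusted p = 8.37e-08, edgeR). Ift74, the tubulin-carrying partner of Ift81, had 29.1 and 27.5 CPM in controls, 63.0 and 57.0 in HER2CA astrocytes, 61.5 and 56.1 in the 4OH-TAM libraries and 42.8 and 35.9 in gliomaspheres, the same order as Ift88. Ift81 itself was at 27.97 to 34.1 CPM in control and HER2CA libraries and at 56.0 and 57.3 in the 4OH-TAM libraries. It rose by 0.78 between the day 15 groups (adjusted p = 3.68e-07), where Ift74 did not pass (-0.03, adjusted p = 0.78).

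Ift27, a Rab-like GTPase that links IFT-B to BBSome export (chromosome 15, 78159463 to 78174107, minus strand), went against most other IFT-B genes. It had 15.1 and 17.2 CPM in controls, 8.75 and 8.35 in HER2CA astrocytes, 23.3 and 23.7 in the 4OH-TAM libraries and 30.3 and 33.7 in gliomaspheres. No groups overlapped, and gliomaspheres were the highest. Ift27 fell by 0.92 in HER2CA astrocytes (SE 0.113, adjusted p = 2.58e-06) and was 3.72-fold higher in gliomaspheres than there (1.90, SE 0.111, adjusted p = 4.46e-10; 1.87 without gliomasphere B). Ift57, a peripheral IFT-B member, peaked in HER2CA astrocytes, at 79.9 and 83.1 CPM against 48.2 and 47.4 in controls, and rose by 0.77 there. Ift20, a Golgi-associated member, was between 12.2 and 20.0 CPM in every library. Of the IFT-A genes, Ift122 had 33.8 and 36.4 CPM in controls, 72.5 and 66.0 in HER2CA astrocytes, 67.2 and 74.6 in the 4OH-TAM libraries and 41.5 and 37.2 in gliomaspheres. Ift43 fell by 1.34 in gliomaspheres against HER2CA astrocytes, and Ift140 rose there by 0.39.

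**Figure D4:**
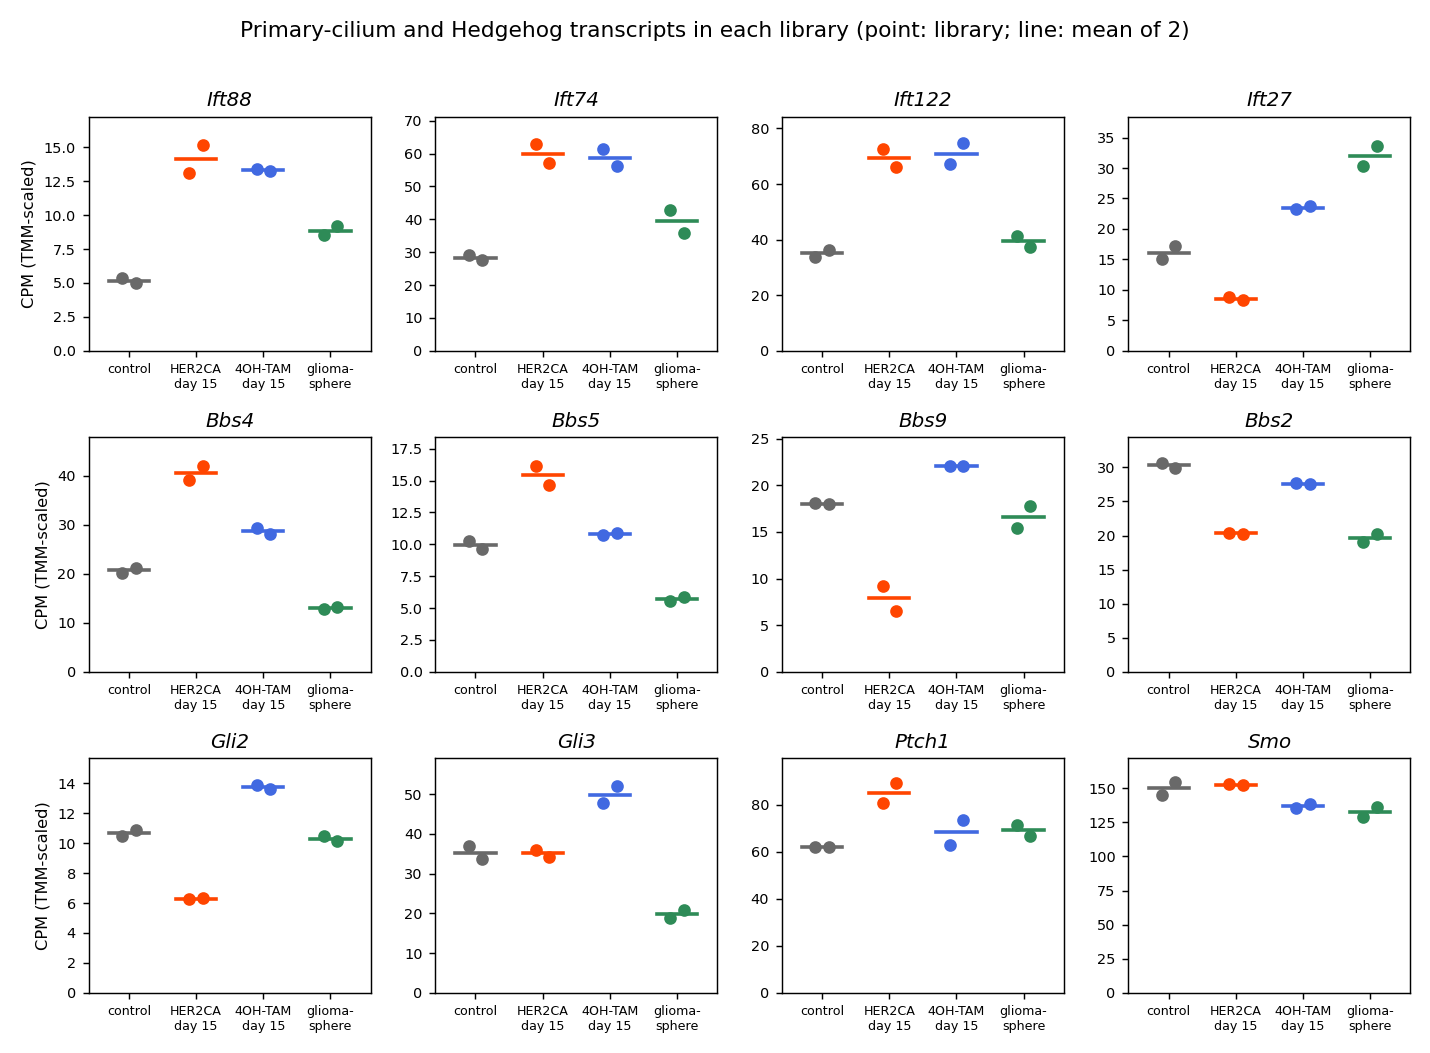
TMM-scaled CPM of 12 primary-cilium and Hedgehog genes in each of the 8 libraries, 1 point per library, with a line at the mean of the 2 libraries of a group. Ift88, Ift74 and Ift122 are high in both day 15 groups, Ift27 and Bbs9 are lowest in HER2CA astrocytes, and Smo stays between 129 and 155 CPM.

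The BBSome subunits split among themselves in HER2CA astrocytes, with 4 of 6 higher and 2 lower than in controls. Over all genes 37.3% rose and 38.4% fell. Without scaling factors, where calls over all genes also dropped, only Bbs4 was called higher and only Bbs9 lower. Bbs4, a subunit that engages the centriolar satellites, had 20.2 and 21.2 CPM in controls, 39.1 and 42.0 in HER2CA astrocytes, 29.3 and 28.1 in the 4OH-TAM libraries and 12.7 and 13.2 in gliomaspheres, with no overlap. It rose by 0.97 in HER2CA astrocytes (SE 0.0866, adjusted p = 7.44e-08) and was 3.14-fold lower in gliomaspheres than there (-1.65, SE 0.097, adjusted p = 4.47e-10). Bbs5 had the same order, from 16.2 and 14.6 CPM in HER2CA astrocytes to 5.57 and 5.87 in gliomaspheres. Bbs9, another subunit, had 18.1 and 17.96 CPM in controls, 9.21 and 6.55 in HER2CA astrocytes, 22.1 and 22.0 in the 4OH-TAM libraries and 15.5 and 17.8 in gliomaspheres. HER2CA libraries were the lowest, where those of Bbs4 were the highest, and Bbs9 fell by 1.21 there (SE 0.139, adjusted p = 1.21e-06). Bbs2 fell as well, by 0.58. Bbs10 and Bbs12, which belong to the chaperonin complex that assembles the BBSome, rose by 0.49 and 0.63 in the 4OH-TAM group over controls. Arl13b, the GTPase of the ciliary membrane, had 44.8 and 43.5 CPM in HER2CA astrocytes and 27.4 to 35.1 in all other libraries, and it rose by 0.55 in HER2CA astrocytes (adjusted p = 2.57e-05).

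Among the Hedgehog genes, receptor and transducer varied little and the Gli factors varied more. Ptch1, the receptor and also a target gene of the pathway, had 62.0 CPM in both controls, 80.9 and 89.3 in HER2CA astrocytes, 63.1 and 73.5 in the 4OH-TAM libraries and 71.5 and 66.9 in gliomaspheres. HER2CA astrocytes were above the rest, a rise of 0.46 over controls (adjusted p = 0.000166). Smo lay between 129 and 155 CPM throughout, and its value of -0.15 between the day 15 groups (adjusted p = 0.0493) turned to 0.05 with upper-quartile factors (adjusted p = 0.474). Gli2, the main activator, had 10.5 and 10.9 CPM in controls, 6.28 and 6.31 in HER2CA astrocytes, 13.9 and 13.6 in the 4OH-TAM libraries and 10.5 and 10.1 in gliomaspheres. It fell by 0.76 in HER2CA astrocytes (SE 0.122, adjusted p = 4.17e-05) and rose by 1.13 between the day 15 groups (SE 0.119, adjusted p = 4.56e-07). Gli3, the main repressor, had 37.0 and 33.6 CPM in controls, 36.1 and 34.1 in HER2CA astrocytes, 47.8 and 52.0 in the 4OH-TAM libraries and 18.7 and 20.9 in gliomaspheres. Gliomaspheres were the lowest for Gli3, with a decrease of 0.85 from controls (SE 0.0978, adjusted p = 2.38e-06; -0.92 without gliomasphere B).

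Of 20 further Hedgehog genes in the table, 14 rose and 5 fell between the day 15 groups, and 5 rose and 11 fell in HER2CA astrocytes against controls. The shares over all genes were 40.8% higher and 39.7% lower in the former comparison, and 37.3% and 38.4% in the latter. The ligand gene Dhh fell by 2.04 in HER2CA astrocytes and rose by 2.59 in the 4OH-TAM group. Evc, a positive regulator at the base of the cilium, fell by 2.01 and rose by 1.94, and the coreceptor gene Gas1 fell by 1.41 and rose by 1.46. The ligand gene Shh and the target and decoy receptor gene Hhip were named after their values were seen. Shh was at 2.45 and 2.56 CPM in the 4OH-TAM libraries and between 0.31 and 0.783 in the others. It is in the table only through the 4OH-TAM group, so its higher level there was fixed in advance. Hhip was at 2.07 and 2.10 CPM in the 4OH-TAM libraries, 1.51 and 1.21 in gliomaspheres, and at most 0.124 in controls and HER2CA astrocytes.

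Other genes of the primary cilium moved both ways, in comparisons where 37.3% of all genes rose and 38.4% fell (HER2CA astrocytes against controls) or 38.4% rose and 40.4% fell (gliomaspheres against HER2CA astrocytes). Of 24 IFT and BBSome genes with other names, 6 rose and 6 fell in HER2CA astrocytes and 5 rose and 12 fell in gliomaspheres relative to them. Kif3c, a kinesin-II motor subunit, fell by 1.20 in HER2CA astrocytes and was 1.95 higher in gliomaspheres than there. Cluap1, the IFT38 protein, rose by 0.88 and fell by 0.94 in the same comparisons, the direction of Ift88. Of 36 transition zone and basal body genes, 20 rose and 9 fell in HER2CA astrocytes. Cep290 (1.43), B9d1 (1.36) and Ofd1 (1.19), all of the ciliary gate or centriole, rose there. Of 12 genes of the ciliary membrane, 1 rose and 6 fell there. Of 13 genes linked to cilium disassembly, 8 rose and 5 fell in gliomaspheres against HER2CA astrocytes, led by the mitotic genes Kif2c (6.05), Cdc20 (4.80), Nek2 (4.55) and Plk1 (4.48).

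Markers of proliferation and of other cells also differed between the groups. Over all genes 32.5% rose and 32% fell in gliomaspheres against controls, and 40.8% rose and 39.7% fell between the day 15 groups. In HER2CA astrocytes against controls 37.3% rose and 38.4% fell. All 21 proliferation genes rose in gliomaspheres against controls, with summed levels of 1520 to 1574 CPM against 169 to 175 in controls, and Mki67 reached 245 and 263 CPM. Between the day 15 groups 16 of the 21 rose and 4 fell. Their summed levels overlapped there, at 255.3 and 231.7 CPM in HER2CA astrocytes and 242.4 and 258.5 in the 4OH-TAM libraries. Ependymal markers, of which 6 of 12 are also on the list of other motile genes, summed to 190 to 200 CPM in controls, 42.2 to 45.8 in HER2CA astrocytes, 231 to 245 in the 4OH-TAM libraries and about 232 in gliomaspheres. Of these 12, 11 rose and 1 fell between the day 15 groups, 0 were at 0 counts in any library, and the gliomasphere sum is mostly Nnat. Microglial markers summed to 1063 to 1108 CPM in the 4OH-TAM libraries, 203 to 225 in controls, 207 to 219 in HER2CA astrocytes and 114 to 118 in gliomaspheres. The sum in the 4OH-TAM libraries is mostly Lyz2, with a mean of 721 CPM. Of 14 microglial markers 13 rose and 1 fell between the day 15 groups, and 0 were at 0 counts. Astrocyte (15 of 15), oligodendrocyte-lineage (11 of 12), neuronal (8 of 8), endothelial (2 of 2) and choroid plexus (4 of 4) markers rose in that comparison too. However, only 2 of 8 listed endothelial, 4 of 10 choroid plexus and 8 of 12 neuronal markers were in the table. Pecam1, Cdh5, Cldn5, Ttr, Rbfox3 and Snap25 were among those not in it, so these shares cover only part of each list. Of 11 fibroblast and mural markers 8 rose and 2 fell there, while their summed level was 3805 to 4109 CPM in HER2CA astrocytes and 1551 to 1770 in the 4OH-TAM libraries, mostly Fn1 in each. In gliomaspheres against controls 9 of these 11 fell, with sums of 1337 to 1494 CPM against 5082 to 5245. There 8 of 12 oligodendrocyte-lineage markers rose and 2 fell (sums of 3147 to 3477 CPM against 575 to 628), and 6 of 8 neuronal markers rose and 2 fell (693 to 717 CPM against 366 to 369). The oligodendrocyte-lineage sum in gliomaspheres is mostly Olig1, with a mean of 2259 CPM. In HER2CA astrocytes against controls 9 of 12 oligodendrocyte-lineage markers fell and 1 rose (164 to 171 CPM), and 4 of 8 neuronal markers fell and 2 rose (141 to 152 CPM). In the same comparison 10 of 14 microglial, 7 of 11 fibroblast and mural and 6 of 12 ependymal markers fell, and 1 of each rose. On so few genes, 6 of 12 ependymal and 4 of 8 neuronal markers are not far from the 38.4% of all genes that fell. Of the markers in these lists, Dcx, Mag, Rgs5 and Folr1 were, like Gpc5, at 0 counts in at least 1 control or HER2CA library. The part of cell composition and of proliferation in the cilium gene differences was not tested.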

How the data were processed

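Stranded polyA mRNA libraries of 8 samples were sequenced. The authors deposited whole-number counts for each gene symbol, not normalised. Per the submitters' processing notes, FastQC, STAR 2.5.3a and featureCounts were used with mm10 and GRCm38. Nothing in the material used states the annotation, any filter on low counts, or whether counting used strand.

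A quasi-likelihood model (edgeR 4.0.16, R 4.3.3) with TMM factors and 1 mean per group was fitted to the 13607 genes and 8 libraries, with 4 residual degrees of freedom. The filter filterByExpr kept every gene. Each of the 5 comparisons used glmQLFTest, with p-values adjusted by Benjamini-Hochberg over the 13607 genes, and a gene is called at an adjusted p under 0.05. Levels are CPM on TMM-scaled library sizes. SE is the absolute log2 change over the root of F. Same-group libraries differed by more than sampling noise (chi-square of raw counts over its degrees of freedom 4.05 to 723). The 723 is that of gliomaspheres, whose library B had 36.1% Rn45s. Every library was treated as 1 replicate, which does not show that the libraries are separate cultures. Any gene of the rule could be named. From the other lists the rule took, per comparison, up to 4 called genes with the largest change whose higher group reached 5 CPM. The members and lists were chosen with earlier results of these data known. Gene positions are from GENCODE M21 and promoter windows from RefSeq, GRCm38.p6. Alternatives were other scaling factors and filters, DESeq2 1.42.0, fits limited to the compared groups, the replicate letter as a block, removal of Rn45s and Lars2, and each library left out in turn.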

Additional observations from a re-analysis of the deposited data

How the results depend on the processing

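Over 17 alternatives, 23 of 47 member calls in HER2CA astrocytes against controls held in every setting, 28 of 52 between the day 15 groups, 25 of 40 and 31 of 47 in gliomaspheres against controls and against HER2CA astrocytes, and 22 of 45 in the 4OH-TAM group against controls. Most losses came with no scaling factors, which took 21, 23, 11, 15 and 21 calls in the same order. Calls over all genes dropped too in that setting, as given with each comparison, so the loss is not particular to the cilium genes. Without scaling factors the primary-cilium genes called were 8, 6, 5, 13 and 6, in place of 20, 20, 12, 21 and 18, and the cause was not tested. DESeq2 called 18 motile genes in HER2CA astrocytes against controls, in place of 27. The median of all genes was -0.17 and 0.22 with upper-quartile factors in HER2CA astrocytes against controls and between the day 15 groups, and with no scaling factors to 0.13 between the day 15 groups, -0.33 in gliomaspheres against controls and -0.30 against HER2CA astrocytes. Member values that turned sign were Smo between the day 15 groups (0.0545 with upper-quartile factors) and Ift140 in gliomaspheres against controls (-0.0593 without scaling factors, adjusted p = 0.897).

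With each library left out in turn, 16 to 21 primary and 19 to 28 motile genes were called in HER2CA astrocytes against controls, 17 to 21 and 30 to 33 between the day 15 groups, 11 to 14 and 26 to 28 in gliomaspheres against controls, 20 to 21 and 20 to 25 against HER2CA astrocytes, and 14 to 20 and 20 to 29 in the 4OH-TAM group against controls. A group left with 1 library is assumed to vary like the others. The replicate letters A and B did not pair samples, since deviations of same-lettered libraries correlated at -0.0314 to 0.0554. A replicate block called 28 motile genes in place of 27 in HER2CA astrocytes and in the 4OH-TAM group, each against controls. Genes with few counts, such as Tekt2, Tekt4, Tekt5, Cfap53 and Cfap61, are limited by depth.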
